A study of Mus musculus with 9 samples.

Results

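The 10 endothelial and pericyte genes *Cldn5*, *Pecam1*, *Cdh5*, *Kdr*, *Tek*, *Flt1*, *Vwf*, *Tie1*, *Rgs5* and *Esam* were followed through 9 RNA-seq libraries from the brain of C57BL/6 mice. They were taken by symbol from a table of 24421 genes, and all 10 had a row. SB28 is a mouse glioblastoma line that carries GFP and luciferase, and BAL101553 (lisavanbulin) is the prodrug of the microtubule-disrupting agent BAL27862. The groups were 3 SB28 libraries from control mice, 3 SB28 libraries from mice given BAL101553, and 3 libraries labeled astrocytes, for which the treatment label also reads BAL101553. The labels call the SB28 libraries whole tissue, whereas the study's methods describe GFP-positive tumor cells sorted away from CD45-positive and CD11b-positive cells, a gate that leaves endothelial cells out only through the GFP. With cells sorted in this way, levels in the SB28 libraries would not measure the vessels of the tumor. The BAL101553 tumors were taken at a later day of harvest than the control tumors, so drug and time cannot be told apart. The methods do not describe the libraries labeled astrocytes, and they speak of fewer ex vivo samples per group than the table holds. No label says that the libraries of a group come from separate mice, so p-values measure the spread between these libraries.

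Endothelial cells line the blood vessels, and in the brain their tight junctions form the blood-brain barrier. Pericytes wrap the capillary wall and are held there by PDGF-B from the endothelium, which acts on the receptor PDGFRβ. VEGF, acting on the receptors KDR and FLT1, and the angiopoietins, acting on TEK, direct the growth and the quiescence of the vessel wall, and gliomas are known for abundant and abnormal vessels. In a bulk library, fewer cells of a type and less RNA per cell cannot be told apart.

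Total counts lay between 22919523 and 29230743 in the libraries labeled astrocytes, between 24540452 and 28761388 in the control libraries and between 26667789 and 34013875 in the BAL101553 libraries. The 7 astrocyte genes examined, among them *Aqp4* and *Slc1a2*, were all higher in the libraries labeled astrocytes than in the BAL101553 libraries (edgeR's quasi-likelihood test, adjusted p by Benjamini-Hochberg under 0.05). Those libraries also held RNA of other brain cells, with a summed level of 11756 ± 1297 CPM (read counts scaled to a common library size; SD, n = 3) for 6 oligodendrocyte genes and of 624 ± 239 CPM for 8 microglia and leukocyte genes, beside 13242 ± 1364 CPM for the astrocyte genes. In the 6 SB28 libraries the same sums were 0.130% to 0.175% of that mean for oligodendrocyte genes, 0.245% to 0.417% for microglia and leukocyte genes and 5.14% to 7.34% for astrocyte genes. The astrocyte sum was carried by *Gja1*, at 650 to 928 CPM in SB28 libraries, and most of the oligodendrocyte sum by *Cnp*, at 12.8 to 16.6 CPM. Without genes at 1 CPM or more in each of the 6 SB28 libraries, the sums were 0.0224% to 0.0538% over 4 astrocyte genes and 0.0277% to 0.0513% over 5 oligodendrocyte genes. This rule takes genes out by their level in the SB28 libraries, so the sums left are low there in part through it.

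Across the libraries labeled astrocytes, all 10 genes were well covered, with 455 to 3290 reads in a library. In the SB28 libraries 8 of them were lower and *Cdh5* was far higher. Counted as expressed in SB28 libraries where the level was at least 1 CPM in each of the 6 libraries, *Cdh5* and *Flt1* met the rule and the other 8 did not. The share of all genes that met this rule was not counted, here or for the other lists below. Compared with the BAL101553 libraries, 8 of the 10 genes were higher in the libraries labeled astrocytes, where 46.3% of the 15314 genes tested were higher. *Cdh5* was lower, as were 38.9% of genes tested, and *Flt1* passed in neither direction. The median log2 fold change was 4.47 over the 10 genes and 0.18 over all genes tested. Against the control libraries 9 were higher and *Cdh5* was lower, where 48.8% and 39.5% of 15207 genes tested were higher and lower.

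**Figure D1:**
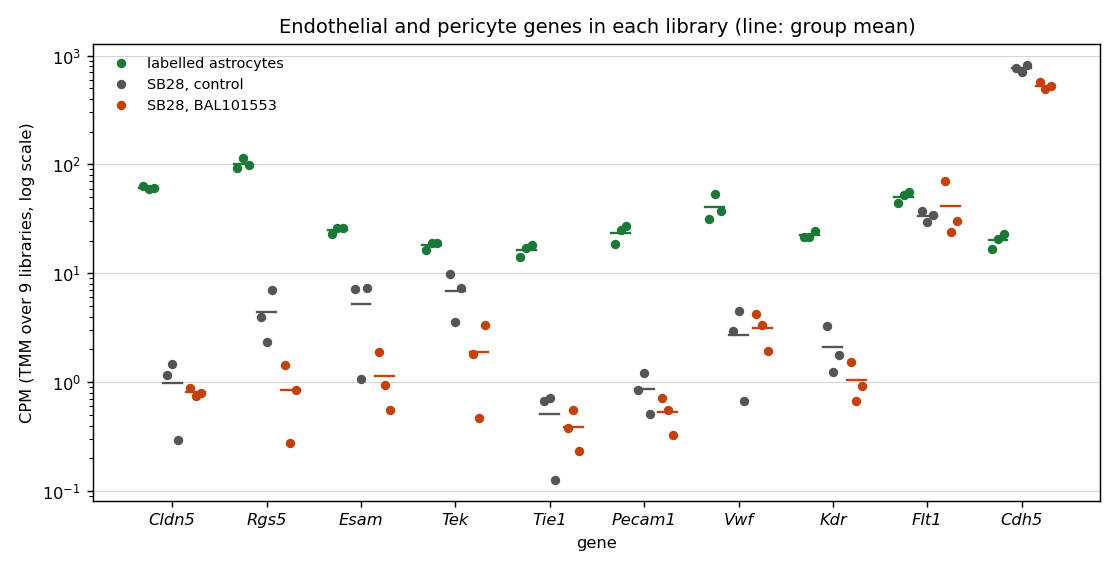
Level of each of the 10 genes in each library, in CPM scaled by TMM over the 9 libraries, on a log axis. Points are libraries (3 per group) and short lines are group means. For 8 genes the libraries labeled astrocytes lie above all 6 SB28 libraries, *Flt1* overlaps, and *Cdh5* lies at 16.8 to 22.8 CPM in the libraries labeled astrocytes and at 490 to 823 CPM in the SB28 libraries. The share of all genes whose libraries separate in this way was not counted.

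*Cdh5* encodes VE-cadherin, the adhesion molecule of endothelial adherens junctions, and lies on chromosome 8 from 104101625 to 104144511 on the plus strand (GRCm38). Its level was 767, 703 and 823 CPM in control libraries 1 to 3. It was 571, 490 and 530 CPM in BAL101553 libraries 1 to 3 and 16.8, 20.7 and 22.8 CPM in the libraries labeled astrocytes. The 3 groups did not overlap, and every SB28 library lay far above every library labeled astrocytes. Depth does not limit this gene, which had 12406 to 19561 reads in SB28 libraries and 544 to 604 reads in libraries labeled astrocytes. By level it ranked between 164 and 293 among 24421 genes in SB28 libraries and between 7372 and 8442 in libraries labeled astrocytes. The level in the libraries labeled astrocytes was 26.2-fold lower than in BAL101553 libraries (log2 fold change -4.71 ± 0.15, SE; edgeR's quasi-likelihood test, adjusted p = 6.2e-08). A gene on the other strand, *Gm29682*, overlaps *Cdh5*, and whether the counting used strand is not given in the sources used here.

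*Flt1* encodes VEGF receptor 1, which binds VEGF-A, VEGF-B and placental growth factor, and *Kdr* encodes VEGF receptor 2, the main signaling receptor for VEGF-A in endothelium. *Flt1* was at 37.4, 29.7 and 34.6 CPM in control libraries 1 to 3. In BAL101553 libraries 1 to 3 it was at 70.6, 24.0 and 30.4 CPM, and in the libraries labeled astrocytes at 43.8, 52.4 and 55.5 CPM. BAL101553 library 1 stood above all other libraries, and the other 5 SB28 libraries lay below the libraries labeled astrocytes. The difference between libraries labeled astrocytes and BAL101553 libraries was 0.29 ± 0.37 on the log2 scale (SE; edgeR's quasi-likelihood test, adjusted p = 0.479). It was 0.89 without BAL101553 library 1 (adjusted p = 0.00140, edgeR) and 0.58 against the control libraries (adjusted p = 0.00176, edgeR). *Kdr* was at 3.28, 1.25 and 1.77 CPM in control libraries and at 1.54, 0.671 and 0.913 CPM in BAL101553 libraries 1 to 3. It was at 21.4, 21.7 and 24.5 CPM in the libraries labeled astrocytes, all above the SB28 libraries, a log2 fold change of 4.44 ± 0.28 over BAL101553 (SE; edgeR, adjusted p = 1.72e-06). The reads of *Flt1* were 2.04 to 2.41 times those of *Kdr* in libraries labeled astrocytes and 11.4 to 45.9 times in SB28 libraries.

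The upstream sequences of these VEGF receptor genes, of which *Flt1* met the rule for SB28 expression and *Kdr* did not, are shown with that of *Cldn5*, which stood highest per kilobase in the libraries labeled astrocytes. Each is the 250 bases before the RefSeq start site on GRCm38.p6, 5′ to 3′ on the gene's strand, at chr5:147726012-147726261 (minus strand) for *Flt1*, chr5:75978456-75978705 (minus strand) for *Kdr* and chr16:18776597-18776846 (plus strand) for *Cldn5*. Capitals mark GGAA and, for the other strand, TTCC, the core bound by ETS transcription factors such as ERG and FLI1, which are known as regulators of endothelial genes.
Flt1: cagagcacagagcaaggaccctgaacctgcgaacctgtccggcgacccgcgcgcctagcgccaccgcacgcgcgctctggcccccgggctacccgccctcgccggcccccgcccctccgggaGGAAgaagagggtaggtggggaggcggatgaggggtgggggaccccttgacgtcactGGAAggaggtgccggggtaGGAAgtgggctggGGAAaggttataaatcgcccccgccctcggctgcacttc
Kdr: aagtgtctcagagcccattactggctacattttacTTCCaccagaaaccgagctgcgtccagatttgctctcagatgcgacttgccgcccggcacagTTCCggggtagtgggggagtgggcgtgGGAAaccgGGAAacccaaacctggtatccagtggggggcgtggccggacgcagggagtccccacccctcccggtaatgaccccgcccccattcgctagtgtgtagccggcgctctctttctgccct
Cldn5: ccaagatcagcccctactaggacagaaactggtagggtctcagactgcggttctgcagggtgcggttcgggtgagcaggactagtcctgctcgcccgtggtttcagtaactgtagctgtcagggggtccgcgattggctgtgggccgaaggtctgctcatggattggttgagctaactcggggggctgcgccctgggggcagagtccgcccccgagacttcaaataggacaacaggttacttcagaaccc
*Flt1* and *Kdr* each held 4 matches and *Cldn5* held 0, where the median over 32851 RefSeq windows of this length was 3 and 93.4% held at least 1. Windows were found for 6 of the 10 genes, and *Tek* held 2, *Rgs5* 3 and *Tie1* 7 matches. At least 7 matches occurred in 3.82% of all windows. A match is a run of letters and not a site, and no match says only that these letters are not in this window. *Erg* and *Fli1* themselves were at 3.27 to 5.24 CPM and 3.27 to 5.14 CPM in the libraries labeled astrocytes, and at 0 to 6 reads and 1 to 10 reads in the SB28 libraries.

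*Cldn5* encodes claudin-5, the main claudin of brain endothelial tight junctions. Its level in the libraries labeled astrocytes was 63.7, 59.6 and 60.6 CPM. In control libraries 1 to 3 it was 1.17, 1.48 and 0.295 CPM, and in BAL101553 libraries 1 to 3 it was 0.889, 0.750 and 0.795 CPM. The groups labeled astrocytes and SB28 lay far apart, with 7 to 39 reads in an SB28 library, and control library 3 was lowest of all. *Cldn5* was 75.8-fold higher in libraries labeled astrocytes than in BAL101553 libraries (log2 fold change 6.24 ± 0.12, SE; edgeR's quasi-likelihood test, adjusted p = 9.53e-09). *Pecam1*, the junctional adhesion molecule CD31, is also carried by leukocytes and platelets. It was at 18.6, 24.7 and 27.4 CPM in libraries labeled astrocytes, at 0.852, 1.21 and 0.505 CPM in control libraries and at 0.718, 0.552 and 0.324 CPM in BAL101553 libraries. No SB28 library came near the libraries labeled astrocytes, and the log2 fold change over BAL101553 was 5.49 ± 0.29 (SE; edgeR, adjusted p = 7.52e-07). *Esam* encodes a tight junction adhesion molecule of endothelial cells and platelets. It was at 23.1, 26.2 and 26.1 CPM in libraries labeled astrocytes, at 7.22, 1.06 and 7.28 CPM in control libraries and at 1.88, 0.947 and 0.560 CPM in BAL101553 libraries. Control libraries 1 and 3 stood above the other 4 SB28 libraries, and control library 2 fell among the BAL101553 libraries. The log2 fold change of *Esam* in libraries labeled astrocytes was 4.50 ± 0.37 over BAL101553 and 2.30 ± 0.52 over control (SE; edgeR, adjusted p = 8.04e-06 and 0.00266).

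*Tek* encodes TIE2, the angiopoietin receptor, and *Tie1* its orphan partner. *Tek* was at 16.3, 19.1 and 19.1 CPM in libraries labeled astrocytes. Control libraries 1 to 3 held 9.87, 3.56 and 7.37 CPM and BAL101553 libraries 1 to 3 held 1.81, 0.473 and 3.39 CPM. The control libraries thus lay between the other groups, without overlap, and the lowest control library was close to the highest BAL101553 library. *Tek* was higher in libraries labeled astrocytes by 3.23 ± 0.52 over BAL101553 and 1.40 ± 0.31 over control on the log2 scale (SE; edgeR, adjusted p = 0.000464 and 0.00248). *Tie1* was at 14.0, 16.9 and 18.3 CPM in libraries labeled astrocytes, at 0.673, 0.720 and 0.126 CPM in control libraries and at 0.376, 0.552 and 0.236 CPM in BAL101553 libraries. Both SB28 groups were near the limit of detection, with 3 to 19 reads per library, and the log2 fold change over BAL101553 was 5.44 ± 0.28 (SE; edgeR, adjusted p = 6.52e-07). *Vwf* encodes von Willebrand factor, made by endothelial cells and megakaryocytes. It was at 31.6, 53.8 and 37.0 CPM in libraries labeled astrocytes, at 2.96, 4.55 and 0.673 CPM in control libraries and at 4.24, 3.35 and 1.91 CPM in BAL101553 libraries. The SB28 groups overlapped fully, and the log2 fold change in libraries labeled astrocytes over BAL101553 was 3.71 ± 0.32 (SE; edgeR, adjusted p = 1.21e-05). Platelet and megakaryocyte genes summed to 15.3% to 31.6% of their level in libraries labeled astrocytes in the SB28 libraries, with *Pf4* at 0 to 3 reads. Most of that sum was *Itga2b*, at 1.39 to 4.21 CPM in SB28 libraries, and *Gp1bb*, at 0.682 to 1.74 CPM. *Itga2b* met the rule for SB28 expression. The part of platelets and megakaryocytes in the *Vwf* level was not tested.

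*Rgs5*, a regulator of G protein signaling, is a defining gene of brain pericytes. It was at 92.3, 113 and 98.5 CPM in libraries labeled astrocytes. Control libraries 1 to 3 held 3.95, 2.35 and 7.07 CPM and BAL101553 libraries 1 to 3 held 1.44, 0.276 and 0.854 CPM. All control libraries were above all BAL101553 libraries, and all of these lay far below the libraries labeled astrocytes, at a log2 fold change of 6.86 ± 0.35 for astrocytes over BAL101553 (SE; edgeR, adjusted p = 6.17e-07). Of the 15 other pericyte and mural genes, 8 met the rule for SB28 expression, among them *Pdgfrb*, *Cspg4*, *Anpep* and *Mcam*, whereas 4 genes used to tell brain pericytes from other mural and stromal cells were at or near 0. The potassium channel gene *Kcnj8* had 0 to 2 reads, its partner *Abcc9* had 0 to 3 reads and *Higd1b* had 0 reads in each of the 6 libraries, which allows up to 3 reads per library. *Vtn*, which encodes vitronectin, had 1 to 12 reads. *Ndufa4l2*, another gene of the list, had 2 to 3 reads in control libraries but 7 to 177 reads in BAL101553 libraries. It reached 6.98 CPM in BAL101553 library 2 and was not among the genes tested between these groups. In relative terms, *Rgs5* reached 0.272% to 6.97% of its mean in libraries labeled astrocytes, against 0.00667% to 0.0650% for *Vtn*.

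Per kilobase of exon (CPM divided by the union exon length), the libraries labeled astrocytes had *Cldn5* first at 43.3 ± 1.53, *Rgs5* second at 22.3 ± 2.39 and *Esam* next at 8.77 ± 0.614 (SD, n = 3), with ranges that did not overlap their neighbors. The other 7 genes followed between *Cdh5* at 4.78 ± 0.727 and *Kdr* at 2.50 ± 0.187, and each overlapped the next. In control libraries *Cdh5* stood at 182 ± 14.4 per kilobase, and *Flt1* came next at 2.51 ± 0.287, with overlapping ranges from there down to *Tie1* at 0.103 ± 0.0671. The BAL101553 libraries had *Cdh5* at 126 ± 9.71 and *Flt1* at 3.09 ± 1.87 per kilobase, each apart from the next, and from *Cldn5* at 0.573 ± 0.0502 the ranges overlapped down to *Tie1* at 0.0789 ± 0.0323. *Cdh5* thus ranked first in both SB28 groups, while in the libraries labeled astrocytes its range overlapped that of *Tek*.

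The 8 genes that did not meet the rule for SB28 expression did not keep the proportions they had in the libraries labeled astrocytes. As a mean over the 6 SB28 libraries, they stood at 1.46% (*Cldn5*), 2.62% (*Rgs5*), 2.72% (*Tie1*), 2.94% (*Pecam1*), 6.96% (*Kdr*), 7.23% (*Vwf*), 12.6% (*Esam*) and 24.3% (*Tek*) of the mean in libraries labeled astrocytes. *Flt1* stood at 74.7% and *Cdh5* at 3224%. The order was not the same in both SB28 groups: *Rgs5* stood at 4.39% in control and at 0.843% in BAL101553 libraries, the latter below *Cldn5* at 1.32%, and *Esam* at 20.6% and 4.49%, the latter below *Vwf* at 7.77%. The contrast was widest in control library 3, where *Esam* reads were 24.7 times and *Rgs5* reads 24.0 times those of *Cldn5*, against 0.363 to 0.440 times and 1.45 to 1.90 times in libraries labeled astrocytes. In control library 2 the same ratios were 0.718 and 1.59. Among the control libraries, *Cldn5*, *Pecam1*, *Vwf* and *Tie1* all ran highest in library 2 and lowest in library 3, whereas the other 6 genes were lowest in library 2.

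**Figure D2:**
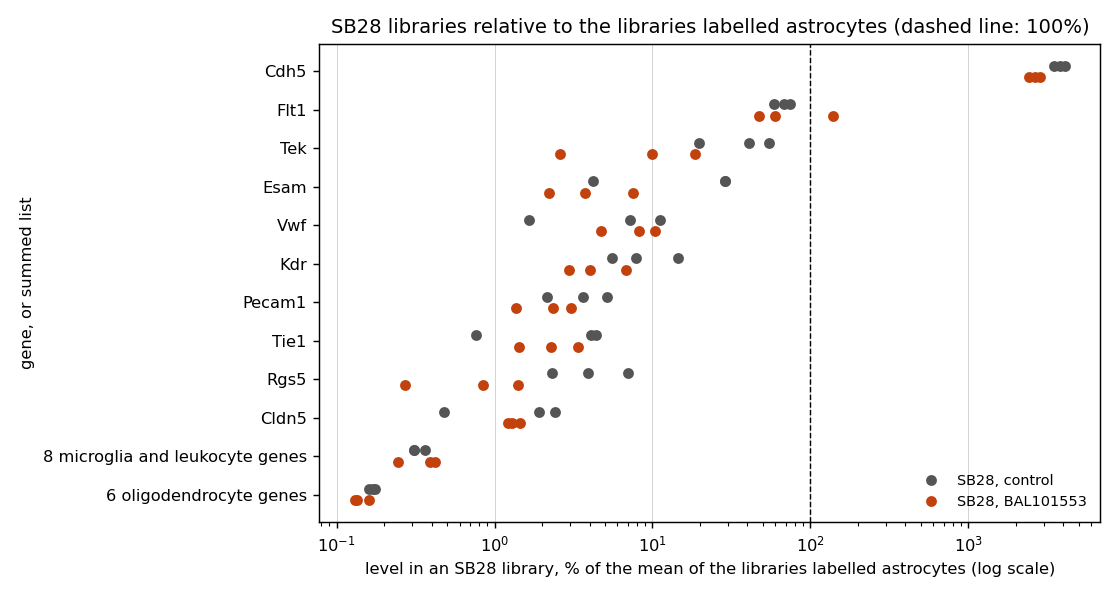
Level in each SB28 library as a percent of the mean of the libraries labeled astrocytes, on a log axis, for the 10 genes and for the summed levels of oligodendrocyte and of microglia and leukocyte genes. Points are libraries, 3 control and 3 BAL101553, and the dashed line marks 100%. *Cldn5* averages 1.60% in control and 1.32% in BAL101553 libraries, *Rgs5* 4.39% and 0.843%, and *Cdh5* 3807% and 2641%, while the oligodendrocyte sum, most of it *Cnp*, lies between 0.130% and 0.175%.

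The BAL101553 and control libraries compare tumors grown with and without the drug. After BAL101553, *Cdh5* and *Rgs5* fell, no gene of the 10 rose, and the other 8 did not pass the test. Over all genes, 6.09% of 12633 tested fell and 8.64% rose. *Cdh5* fell by 0.52 ± 0.10 on the log2 scale (SE; edgeR's quasi-likelihood test, adjusted p = 0.0195), to 69.6% of the control level. *Rgs5* fell by 2.36 ± 0.59 (SE; edgeR, adjusted p = 0.0371), to 19.5% of a control level that was itself low. Neither call held with control library 1, control library 3 or BAL101553 library 3 left out, when adjusted p was 0.0595 to 0.0849 for *Cdh5* and 0.0839 to 0.132 for *Rgs5* (edgeR). *Tek* at -1.85 ± 0.62 and *Esam* at -2.19 ± 0.72 had the next largest differences (log2, SE; edgeR, adjusted p = 0.0806 and 0.0770), and both passed with DESeq2 (adjusted p = 0.0101 and 0.00783). *Kdr* at -1.0 ± 0.46, *Pecam1* at -0.69 ± 0.45, *Tie1* at -0.40 ± 0.62 and *Cldn5* at -0.27 ± 0.52 (log2, SE) did not pass, with adjusted p from 0.167 to 0.742 in edgeR's test. *Vwf* at 0.22 ± 0.59 and *Flt1* at 0.30 ± 0.36 did not pass either, at adjusted p = 0.823 and 0.590 (edgeR).

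**Figure D3:**
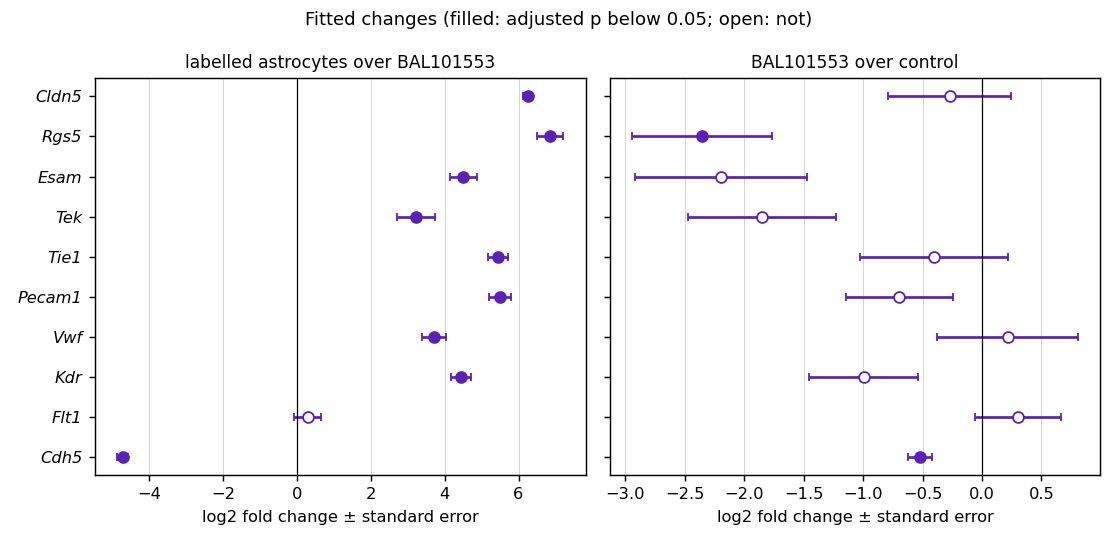
Log2 fold change with standard error for the 10 genes in libraries labeled astrocytes over BAL101553 (left) and in BAL101553 over control (right), with 3 libraries per group and separate horizontal scales. Filled points have an adjusted p below 0.05 by edgeR's quasi-likelihood test. On the left *Cdh5* alone is negative, at -4.71, and on the right *Cdh5* at -0.52 and *Rgs5* at -2.36 are filled.

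In 3 of the 10 genes (*Cdh5*, *Tek* and *Rgs5*) every BAL101553 library lay below every control library, a separation that 19.6% of all genes tested showed in this direction. The median log2 difference was -0.61 over the 10 genes and 0.02 over all genes tested. Summed over the 8 genes without *Cdh5* and *Flt1*, the level was 23.7 ± 6.99 CPM in control and 9.82 ± 2.76 CPM in BAL101553 libraries (SD, n = 3), against 309 ± 27.3 CPM in the libraries labeled astrocytes. The highest BAL101553 library held 12.9 CPM and the lowest control library 16.2 CPM. Those 8 genes were set apart by their level in SB28 libraries, so a low sum there follows in part from that rule. *Tek*, *Rgs5* and *Esam* carried most of the difference between control and BAL101553 libraries, with 16.6 ± 8.33 CPM in control and 3.88 ± 1.89 CPM in BAL101553 libraries. The other 5 genes summed to 7.17 ± 3.29 and 5.94 ± 1.79 CPM, with ranges that overlapped (SD, n = 3). These 3 genes are the ones with the largest log2 falls in this same comparison, so the split describes the sum and tests nothing. The 5 oligodendrocyte genes without *Cnp* summed to 2.41 to 2.80 CPM in BAL101553 libraries and to 3.52 to 4.46 CPM in control libraries, without overlap. *Mbp*, *Mag* and *Cldn11* were each below control in every BAL101553 library, whereas *Mog*, *Mobp* and *Cnp* overlapped between the groups. By edgeR 0 of the 4 oligodendrocyte genes tested passed, with 1 at an unadjusted p under 0.05 (*Cldn11*, -1.25 ± 0.35 on the log2 scale, SE; adjusted p = 0.0511). Sums of microglia and leukocyte genes ran from 1.53 to 2.60 CPM in BAL101553 and from 1.93 to 2.27 CPM in control libraries, and those of 4 astrocyte genes without the genes expressed in SB28 from 2.86 to 4.85 CPM and from 2.02 to 2.61 CPM. The part of other cells in the differences between control and BAL101553 libraries was not tested.

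Most other endothelial genes were lower in the SB28 libraries as well. Of 16 other endothelial genes, 14 were higher and 2 lower in the libraries labeled astrocytes than in BAL101553 libraries, beside 46.3% and 38.9% of all genes tested, with a median log2 fold change of 4.97, and 5 met the rule for SB28 expression. *Emcn*, which encodes the sialomucin endomucin, was at 6.78 to 9.73 CPM in libraries labeled astrocytes and had 0 to 8 reads in SB28 libraries. *Sox17*, an arterial transcription factor gene, was at 4.47 to 5.76 CPM against 0 to 1 read. The exceptions were *Plvap*, a gene of fenestrated endothelium, at 1.21 to 1.63 CPM in libraries labeled astrocytes and 3.28 to 15.5 CPM in SB28 libraries (log2 fold change -3.17 against BAL101553), and *Cd34*, also a progenitor and stromal gene, at 19.6 to 26.0 CPM and 50.9 to 110 CPM (-1.93). Between BAL101553 and control, 7 of the 16 genes could be tested and 0 passed by edgeR, with 2 at an unadjusted p under 0.05. Of all genes tested there, 8.64% rose and 6.09% fell.

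Among 13 blood-brain barrier genes, 7 were higher, 3 lower and 3 not called in the libraries labeled astrocytes against BAL101553, beside 46.3% higher and 38.9% lower over all genes tested, with a median log2 fold change of 0.92, and 8 met the rule for SB28 expression. The transporter genes *Slco1c1* and *Slco1a4*, of which *Slco1c1* is also an astrocyte gene, had the largest differences. *Slco1c1* was at 308 to 369 CPM in libraries labeled astrocytes and at 0.0589 to 0.568 CPM in SB28 libraries (log2 fold change 10.47 over BAL101553). *Slco1a4* was at 36.7 to 49.5 CPM and 0.253 to 0.616 CPM (6.72). The efflux transporter gene *Abcg2* (-1.39) and *Itm2a* (-1.15) were higher in BAL101553 libraries, at 30.9 to 52.2 CPM and 73.1 to 110 CPM. After BAL101553, 10 of the 13 genes could be tested and 1 passed, a fall, where 6.09% of all genes tested fell. This was *Mfsd2a*, the lipid transporter that restrains transcytosis at the barrier. It fell by 0.75 ± 0.20 on the log2 scale (SE; edgeR, adjusted p = 0.0468), from 12.8 to 15.1 CPM in control to 5.95 to 9.78 CPM in BAL101553 libraries. The call of *Mfsd2a* with a library left out was not examined.

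Of 15 other pericyte and mural genes, 9 were higher, 5 lower and 1 not called in the libraries labeled astrocytes against BAL101553, beside the same 46.3% and 38.9% over all genes tested, with a median of 3.55 on the log2 scale. *Vtn* was at 583 to 682 CPM in libraries labeled astrocytes, and *Higd1b* at 10.3 to 13.3 CPM, at least 102-fold above a floor of 3 reads per BAL101553 library. The contractile genes were split. *Acta2*, *Tagln* and *Cnn1* were lower in the libraries labeled astrocytes, and *Myh11*, the smooth muscle myosin gene, and *Des*, the desmin gene, were higher (log2 fold change 6.88 and 5.22). *Acta2*, smooth muscle actin, was at 702 to 889 CPM in control, 385 to 545 CPM in BAL101553 and 47.7 to 71.1 CPM in libraries labeled astrocytes, and *Cnn1*, calponin, at 24.0 to 64.4 CPM in SB28 libraries against 0.493 to 0.981 CPM. *Pdgfrb*, the pericyte receptor for PDGF-B that fibroblast-like cells also carry, was at 217 to 266 CPM in control, 350 to 374 CPM in BAL101553 and 227 to 245 CPM in libraries labeled astrocytes. After BAL101553, 8 of the list could be tested: *Pdgfrb* rose by 0.57 ± 0.10 and *Anpep*, an aminopeptidase, by 0.56 ± 0.15, and *Acta2* fell by 0.74 ± 0.15 (log2, SE; edgeR, adjusted p = 0.0144, 0.0426 and 0.0220). Over all genes tested in that comparison, 8.64% rose and 6.09% fell. SB28 libraries also carried fibroblast-associated genes such as *Col1a1*, *Col3a1* and *Pdgfra*, and the 6 genes of that list summed to 9458 ± 373 CPM in control and 14659 ± 586 CPM in BAL101553 against 169 ± 18.7 CPM in libraries labeled astrocytes (SD, n = 3).

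Of the 16 angiogenic ligands and receptors, 14 met the rule for expression in the SB28 libraries themselves. The share of all genes that met this rule was not counted. In libraries labeled astrocytes 10 were lower and 5 higher than in BAL101553 libraries, beside 38.9% and 46.3% of all genes tested, with a median log2 fold change of -2.05. Among ligands, *Vegfd*, a lymphangiogenic factor listed under the older symbol *Figf*, was at 42.4 to 70.5 CPM in SB28 libraries and 1.86 to 2.25 CPM in libraries labeled astrocytes (-4.83). *Esm1*, the proteoglycan endocan of endothelial tip cells, was at 4.66 to 17.4 CPM in control, 18.9 to 55.2 CPM in BAL101553 and 0.555 to 1.17 CPM in libraries labeled astrocytes (-5.18). *S1pr1*, the sphingosine phosphate receptor that is also an astrocyte gene, was at 1072 to 1264 CPM in libraries labeled astrocytes and 49.1 to 117 CPM in SB28 libraries (4.38), and *Dll4*, the tip cell Notch ligand, was at 3.85 to 6.27 CPM (4.42). After BAL101553, 2 of the 15 genes tested rose and 1 fell, near the 8.64% and 6.09% over all genes tested. *Angpt1*, the TEK agonist, rose by 0.92 ± 0.24, from 17.2 to 22.5 CPM in control to 24.3 to 49.2 CPM, and *Nrp2*, a VEGF co-receptor, rose by 0.46 ± 0.10, from 274 to 312 CPM to 378 to 439 CPM (log2, SE; edgeR, adjusted p = 0.0420 and 0.0243). *Dll4* fell by 2.25 ± 0.57, from 0.872 to 1.47 CPM in control to 0.0789 to 0.445 CPM, the latter 2 to 13 reads per library (log2, SE; edgeR, adjusted p = 0.0380).

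**Figure D4:**
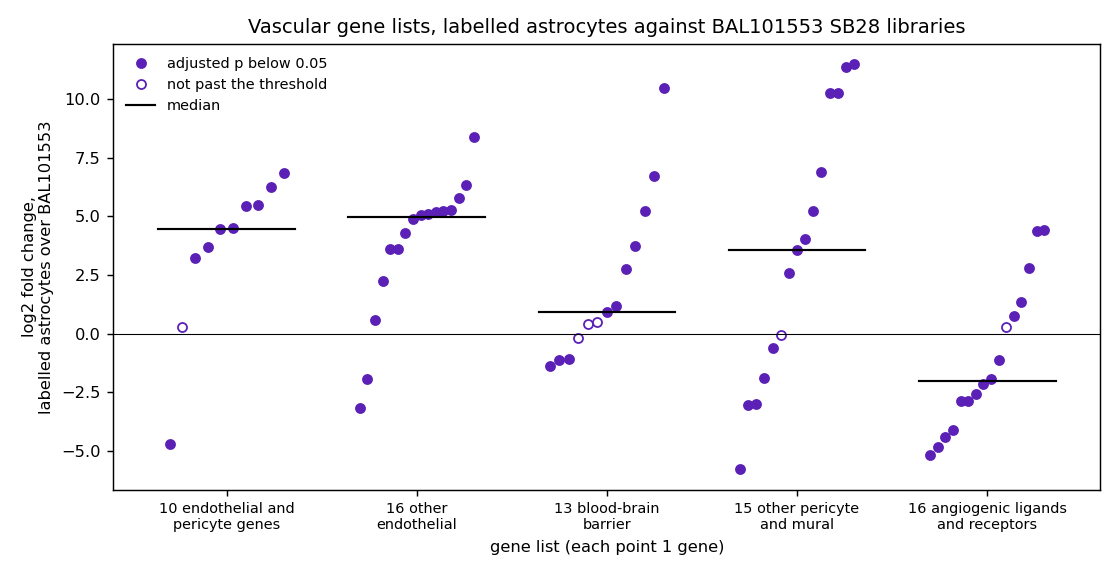
Log2 fold change in libraries labeled astrocytes over BAL101553 for each gene of the 5 vascular lists, sorted within a list, with the list median as a line. Filled points have an adjusted p below 0.05 by edgeR's quasi-likelihood test; values of genes with 0 to 3 reads in every BAL101553 library, such as *Higd1b* and *Sox17*, depend on the prior count. Medians run from 4.97 for other endothelial genes to -2.05 for angiogenic ligands and receptors.

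Outside these lists, the 5 genes whose pattern over the 9 libraries was most like that of *Cldn5* were *2900092D14Rik*, *Lrrc4*, *Eml2*, *Mia* and *Asrgl1*. The root mean square difference of their centered log2(CPM + 0.5) profiles from that of *Cldn5* was 0.26 to 0.31, over 14743 genes compared. All 9 libraries share the large step between libraries labeled astrocytes and SB28 libraries, on which such a likeness rests. Within the 10, *Pecam1* was closest to *Cldn5* at 0.62 and *Tie1* next at 0.66, and *Cdh5* was farthest at 4.96.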

How the data were processed

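Stranded RNA libraries were made by the authors, who aligned reads with TopHat and used PicardTools for quality control, with counting by HTSeq and featureCounts; the submitters' processing notes name HTSeq 0.6.1 and the build mm10. The values deposited are raw counts of reads per gene as whole numbers, for 9 libraries that were grouped by their labels. The software was edgeR 4.0.16, with DESeq2 1.42.0 as the alternative and limma 3.58.1 beneath edgeR, under R 4.3.3. Each fit held the 2 groups compared. Genes were kept by filterByExpr, libraries were scaled by TMM, and edgeR's quasi-likelihood test was two-sided, with p adjusted by Benjamini-Hochberg across every gene of the fit and called below 0.05. All 10 genes passed the filter in both fits. Levels are CPM scaled by TMM over 9 libraries. A standard error is the log2 fold change over the square root of F. Of the gene names, 27 had become dates, which hold up to 0.440% of a library.

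The 10 genes and the other lists (endothelial, blood-brain barrier, pericyte and mural, angiogenic, and markers of other cell types) were chosen with earlier results of these data known. Named were all 10 genes, the genes of the 4 related lists called after BAL101553, and the 2 largest and 2 smallest changes of each such list in libraries labeled astrocytes against BAL101553; other genes were named for a role beside one of these. Coordinates and exon lengths are from GENCODE vM21 (GRCm38). On simulated data with 200 genes changed by a fold of 2, the test recovered 67% in the comparison of libraries labeled astrocytes with BAL101553 (15074 genes) and 59% in that of BAL101553 with control (12517 genes), with 13 false calls in each.

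Alternatives were DESeq2, RLE or library totals for scaling, 2 other filters, all 9 libraries in one model, the replicate number as a block, control as the reference group and leaving out each library.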

Additional observations from a re-analysis of the deposited data

How the results depend on the processing

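All genes but *Flt1* kept their call in libraries labeled astrocytes against BAL101553 under every alternative that gave a value; *Tie1* and *Rgs5* gave none with at least 10 reads required in every library. *Flt1* ranged there from -0.000236 (without BAL101553 library 2) to 0.89 with 1 library left out. In BAL101553 against control, where the counts of calls changed most, *Flt1* ranged from -0.31 (without BAL101553 library 1) to 0.57, *Vwf* from -0.25 (without control library 3; -0.05 without BAL101553 library 1) to 0.80 and *Cldn5* from -0.70 to 0.15 (without control library 2), log2 values that never passed the test. *Cdh5* ranged from -0.59 to -0.44 over 13 alternatives and passed in 10, and *Rgs5* from -2.92 to -1.86 over 12 and passed in 9; the exceptions are the 3 left-out libraries named with these genes above. *Esam* passed also without control library 2 (adjusted p = 0.0273, edgeR).

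Of the 10 genes, 4 fell with DESeq2 and 4 with all 9 libraries in one model (*Tek* and *Esam* added), 1 of the 7 left fell with at least 10 reads required in every library (a filter that drops *Rgs5*), and 0 to 3 fell with 1 library left out. Of the 60 related vascular genes, 7 other endothelial, 10 blood-brain barrier, 8 pericyte and mural and 15 angiogenic genes could be tested in BAL101553 against control. Of those tested, 4 rose and 3 fell in the main test, beside 8.64% and 6.09% of all genes tested. With DESeq2 7 rose and 6 fell, with all 9 libraries 7 rose, and with 1 library left out 0 to 4 rose and 0 to 2 fell. All 60 could be tested in libraries labeled astrocytes against BAL101553. There 35 were higher, beside 46.3% of all genes tested, and 16 of 39 with at least 10 reads in every library. Over all genes, 1337 fell with DESeq2, 425 with library totals and 1349 with all 9 libraries, where 1673 rose; with 1 library left out, 152 to 977 rose and 41 to 735 fell, fewest without control library 3. Library totals raised the share of rises among calls from 58.7% to 77.4% and moved the median of all genes by 0.20 in libraries labeled astrocytes against BAL101553 and by 0.09 in BAL101553 against control (log2).

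Libraries with the same number did not deviate together throughout (r across genes, which are not independent, of 0.102, 0.00457 and 0.113 for BAL101553 with control). With 3 libraries per group, these values cannot tell whether such libraries share more than a number. With the replicate block, 864 genes rose and 507 fell after BAL101553, 3 of the 10 genes fell (*Tek* added at adjusted p = 0.0299, edgeR), and in libraries labeled astrocytes 8 were higher and 1 lower as before.

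Genes with few reads are limited by depth: 3 reads in *Tie1* in control library 3 were at the limit of detection. A left-out library leaves a group of 2.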

Other observations

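Genes beside *Cdh5* and *Flt1* on the chromosome were read for their levels, a choice made after the values of *Cdh5* were seen. Next to *Cdh5*, *Bean1*, which starts 25.9 kb beyond it, averaged 6.90 CPM in SB28 libraries and 0.180 CPM in the libraries labeled astrocytes. The next gene, *Tk2*, ran the other way at 11.7 to 17.5 CPM and 31.5 to 33.1 CPM. The cadherin gene *Cdh11*, 1316 kb on the other side, was at 112 to 244 CPM in SB28 libraries and 58.1 to 65.0 CPM in libraries labeled astrocytes, and *Cdh8* had 0 reads in SB28 libraries and 3.21 to 5.09 CPM in libraries labeled astrocytes. Beside *Flt1*, *Pan3* was at 23.6 to 42.6 CPM in SB28 libraries and 42.8 to 45.2 CPM in libraries labeled astrocytes, and *Pomp* at 79.9 to 99.2 CPM and 44.4 to 48.0 CPM.

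*Pdgfb*, the ligand that holds pericytes at the vessel, was at 287 to 328 CPM in SB28 libraries and 14.5 to 20.0 CPM in libraries labeled astrocytes, a log2 fold change of -4.13 ± 0.15 in the latter against BAL101553 (SE; edgeR's quasi-likelihood test, adjusted p = 9.98e-08), and it differed by 0.12 ± 0.08 between BAL101553 and control (log2, SE; edgeR, adjusted p = 0.321). The 6 neuron genes summed to 98.7% to 240% of their level in libraries labeled astrocytes in the SB28 libraries. Of the 6, *Stmn2* had the highest mean in both SB28 groups, at 6.75 to 29.9 CPM. *Gad1* was at 0.834 to 6.51 CPM in SB28 libraries, against a mean of 2.16 CPM in libraries labeled astrocytes. *Syt1* was at 0.379 to 1.03 CPM, against a mean of 1.28 CPM. In SB28 libraries *Rbfox3* had 0 reads, *Slc17a7* 0 to 2 reads, and *Snap25* at most 10 reads per library. The 4 globin genes examined were listed at 0 in all 9 libraries. *Alas2*, the other red blood cell gene examined, had 20 to 65 reads in libraries labeled astrocytes and 0 reads in SB28 libraries.

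Of the 5 fibroblast-associated genes tested, 4 rose after BAL101553, where 8.64% of all genes tested rose. *Pdgfra* rose by 0.95 ± 0.16, *Col3a1* by 0.89 ± 0.16, *Col1a1* by 0.49 ± 0.11 and *Dcn* by 2.11 ± 0.37 (log2, SE; edgeR, adjusted p = 0.0134, 0.0159, 0.0295 and 0.0148).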
